A study of Mus musculus with 9 samples.

Results

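The clustered histone genes are the genes of the replication-dependent histones, which lie side by side in a few loci. They were taken as every gene whose symbol begins with Hist1h, Hist2h, Hist3h or Hist4h, which gave 67 of the 32285 mouse genes counted. Unique molecular identifiers (UMIs, one per captured transcript) of these 67 genes were followed in single cells of EPZFTA-RELA tumors, a mouse model of ZFTA-RELA ependymoma, and of control brain. Tumors came from 5 NestinCreERT2;Fus1 mice and control brain from 4 NestinCreERT2;TdT mice, so that both groups carried the NestinCreERT2 driver, and all mice were 6 to 8 weeks old. In the model, a conditional fusion allele is recombined in embryonic radial glia, so that it is limited to descendants of cells in which the Nestin-driven Cre was active. Tissue was dissociated, stained with DAPI and anti-Ter119, sorted and loaded on a droplet platform. Each numbered library was taken as 1 mouse, since the labels name no animals. In tumors against controls, p-values measure only the spread between these libraries. Where states of cells were compared within tumors, the mouse was a block, and p-values cover only the spread of the difference within a library. In both cases that spread is estimated partly from all genes tested, so a very small p-value does not rest on these few libraries alone.

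Kept cells numbered 1587 to 6365 a mouse, with median depths of 2031 to 6524 UMIs a cell. Free RNA was estimated by summing the 3000 lowest barcodes of every library, which still held medians of 559 to 1338 UMIs, and in tumor 3 these overlap the 10000 barcodes from which cells were taken. In controls, the 10 neuron marker genes summed to 6940 to 7710 UMIs per 1000000 (CPM) in free RNA and to 5353 to 6211 CPM in the neuron-gated cells, so that the neuron-gated cells of the controls were not above free RNA in their own markers. The microglia or macrophage markers were at 450 to 525 CPM in the controls' free RNA and at 14770 to 19870 CPM in the control cells gated by them. The histone genes themselves were at 320 to 374 CPM in the controls' free RNA against 238 to 260 CPM in their cells, and at 3530 CPM in the free RNA of tumor 5 against 3550 CPM in its cells. Libraries other than control 4, whose barcode list could not be matched, shared 1 to 9 kept barcodes a pair.

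A dividing cell must double its histones while it copies its DNA. The clustered genes serve this need: they are transcribed together at the histone locus body, carry no introns as a rule, and most of their messages end in a conserved stem-loop in place of a poly(A) tail. The stem-loop is bound by SLBP, which governs processing and stability of the message. Core histones H2A, H2B, H3 and H4 form the nucleosome, and the linker histones H1 bind the DNA that enters and leaves it. Replacement histones such as H2A.Z and H3.3 are encoded by genes outside the clusters, with introns and poly(A) tails, and are made throughout the cycle.

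Of the 67 genes, 54 lie on chromosome 13 between positions 21715763 and 23934851, 10 on chromosome 3, 2 on chromosome 11 and 1 on chromosome 6 (GRCm38, GENCODE M21). They comprise 6 H1, 18 H2A, 18 H2B, 12 H3 and 13 H4 genes. A perfect hairpin with a stem of 6 bases beginning GG and a loop of 4 bases beginning TT was found after the stop codon of 44 genes, 21 to 58 bases downstream. Of the 23 genes without one, 15 had no more than 2 annotated bases after the stop codon, so that the stretch was not there to be searched. Each kind of stem-loop is shown once, from the gene of that kind with most UMIs, as DNA letters of the annotated transcript with the stem in capitals.
Hist1h1e: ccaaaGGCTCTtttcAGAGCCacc
Hist1h4d: ccaaaGGCCCTtttcAGGGCCact
Hist1h3e: aaaacGGCTCTtttaAGAGCCacc
Hist1h4i: ttaaaGGCCCTttttAGGGCCacc
Hist1h4j: ctaaaGGTCCTtttcAGGACCacc
Hist2h2ac: aaaaaGGCTCTttttAGAGCCacc
The first form was carried by 26 genes, the second by 7, the third by 6, that of Hist1h4i and that of Hist1h4j by 2 each and the last by 1. How far the longest annotated transcript runs past the hairpin also differed: some stop close to the hairpin and others run on, with 3 bases past it in Hist1h2ap, 57 in Hist2h2ac, 840 in Hist1h1c, 1153 in Hist1h1e and 2010 in Hist1h2ac.

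Promoter windows from RefSeq (GRCm38.p6, 250 bases before to 50 after each start) were matched to 62 of the genes. Hist1h2ap and another H2A gene were matched to the same RefSeq gene, so that the same window was counted for both. CCAAT, searched on both strands, was present in 53 of the 62 and in 37.4% of all 32851 windows. TATAAA was present in 35 and in 13.6% of all windows, and ATTTGCAT, the octamer known from H2B promoters, in 14 and in 1.74% of all windows. The 14 include H2A as well as H2B genes. Some H2A and H2B genes start close together on opposite strands. Their windows overlap, so that 1 match can count for both genes. The 120 bases before the start are shown for 4 genes, chosen because Hist1h1b and Hist1h1e were higher in cycling cells while Hist1h1c and Hist3h2a did not pass that test, with matches to these 3 words in capitals.
Hist1h1b, chr13:21780626-21780745, minus strand: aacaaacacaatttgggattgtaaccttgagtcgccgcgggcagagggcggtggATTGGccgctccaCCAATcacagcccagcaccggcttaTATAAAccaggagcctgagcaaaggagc
Hist1h1e, chr13:23622559-23622678, minus strand: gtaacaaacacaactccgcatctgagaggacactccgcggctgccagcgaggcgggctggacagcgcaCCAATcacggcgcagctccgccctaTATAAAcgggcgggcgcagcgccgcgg
Hist1h1c, chr13:23738687-23738806, plus strand: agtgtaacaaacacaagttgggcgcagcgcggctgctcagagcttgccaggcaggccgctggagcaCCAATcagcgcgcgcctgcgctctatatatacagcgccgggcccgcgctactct
Hist3h2a, chr11:58954565-58954684, plus strand: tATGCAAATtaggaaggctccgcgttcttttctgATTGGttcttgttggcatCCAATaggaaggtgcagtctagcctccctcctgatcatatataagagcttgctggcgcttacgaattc
All 4 stretches hold CCAAT on 1 strand or the other. Those of Hist1h1b and Hist1h1e also hold TATAAA, and that of Hist3h2a holds the octamer. TATAAA did not follow the cycling result gene by gene. The windows of Hist1h3c and Hist1h2bj, both higher in cycling cells, lack it, and that of Hist1h2ac, which did not pass, holds it. A match describes these letters, and no binding was measured.

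Kept cells of the 9 mice held 175060 UMIs of the 67 genes among 156129108 UMIs. Of the 67, 65 had at least 1 UMI, 16 of these had fewer than 100, and Hist1h2bq and Hist1h2ba had 0, where a total of 3 UMIs is the limit that a count of 0 allows. The 12 genes with most UMIs took 85.1% of the UMIs, and Hist1h2bc, an H2B gene, took 22.6% alone. Linker histones took 38.4%, H2B 31.5%, H2A 16.3%, H4 9.93% and H3 3.88%. H2B led in the controls, at 52.6% to 57.9% of the histone UMIs, and in tumors 1, 3 and 4, at 42.9%, 36.8% and 41.2%, whereas the linker histones led in tumors 2 and 5, at 44.1% and 55.9%. Near-identical copies make single rows uncertain: in the median gene, 49.5% of all 50-base words of its transcripts also occurred in another gene, from 0% in Hist1h1b to 100% in Hist2h2aa2 and Hist2h3c1. The share was 93.1% in Hist1h2ap and 97.3% in Hist1h2bq. The limit of 3 UMIs for Hist1h2bq therefore covers counting error only and does not bound its transcripts. Hist1h1e further overlaps a long annotated transcript of Hist1h2be on the same strand. An order of UMI counts is therefore not an order of transcript levels.

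In the controls the levels of these 12 genes varied widely. Hist1h2bc was at 68.3, 72.6, 69.8 and 56.9 CPM in controls 1 to 4, and Hist3h2ba, also an H2B gene, at 62.3, 56.4, 55.7 and 56.6. The linker histone gene Hist1h1e was at 29.3, 27.1, 32.8 and 28.1 CPM, and Hist1h1c at 20.9, 23.7, 28.3 and 21.7. By contrast the linker histone gene Hist1h1b was at 2.25, 1.12, 2.78 and 3.59 CPM and the H2A gene Hist1h2ap at 0.291, 0.465, 0.757 and 1.29. The controls spread more widely, relative to their level, in these last 2 genes than in the 4 before them, as the plot of the leading genes by mouse shows. These 2 genes rest on few UMIs, 31, 24, 44 and 78 for Hist1h1b and 4, 10, 12 and 28 for Hist1h2ap. The part of counting error in their spread was not tested.

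**Figure D1:**
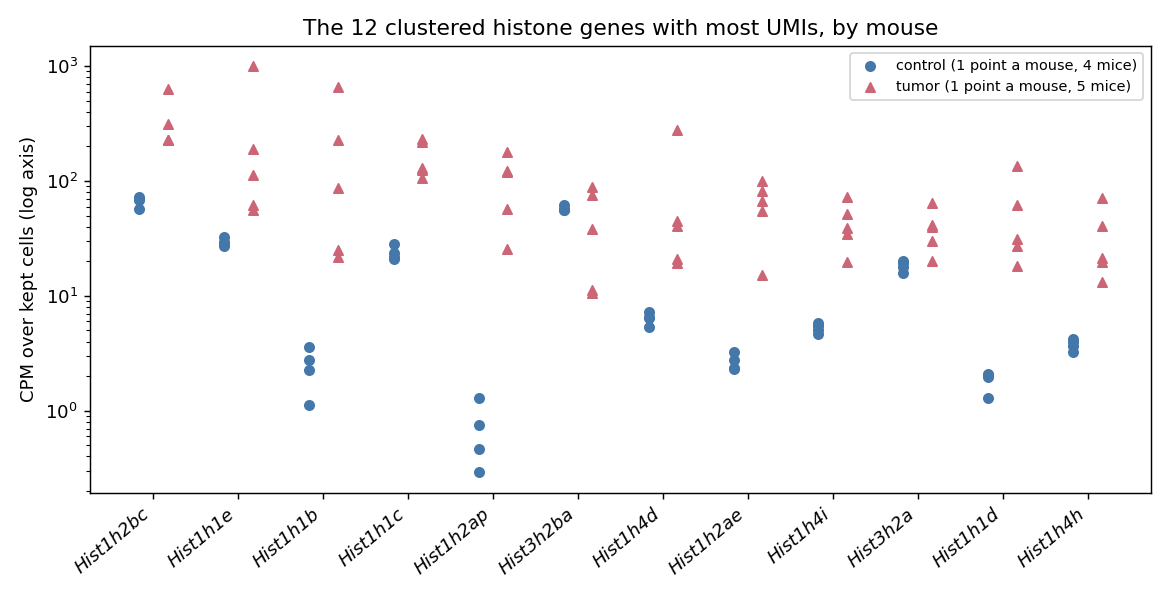
CPM over kept cells, on a log axis, of the 12 clustered histone genes with most UMIs, 1 point a mouse, 4 controls and 5 tumors. Hist3h2ba overlapped, at 10.5 to 89.3 CPM in tumors and 55.7 to 62.3 CPM in controls. For the others all tumors lay above all controls, for Hist3h2a only just (20.1 CPM in tumor 2, 20.0 CPM in control 4). How many of all genes separate in this way was not counted.

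Whether the tumors differed from control brain was asked first over all kept cells. Summed over the 67 genes, controls were at 247, 249, 260 and 238 CPM and tumors 1 to 5 at 690, 1350, 1250, 1710 and 3550. Hist1h1b reached 24.9, 230, 21.7, 87.0 and 655 CPM in tumors 1 to 5, a log2 fold change of 6.72 ± 1.26 (SE, edgeR quasi-likelihood test, adjusted p = 0.001654). Hist1h2ap reached 25.4, 119, 56.7, 180 and 122 CPM, with a log2 fold change of 7.47 ± 0.83 (adjusted p = 0.0001907). The H3 gene Hist1h3c, at 0.0727 to 0.645 CPM in controls and 3.2 to 48.4 CPM in tumors, rose by 5.95 ± 1.23 on the log2 scale (adjusted p = 0.002674). Hist1h2ab and Hist1h3a, both under 0.3 CPM in every control, rose by 5.65 ± 0.78 and 5.62 ± 1.14 (adjusted p = 0.0004082 and 0.002451). These folds rest on few control UMIs.

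Genes with more UMIs in control brain rose as well. Hist1h2bc was at 226, 229, 311, 630 and 229 CPM in tumors 1 to 5 (log2 fold change 2.58 ± 0.41, adjusted p = 0.0007468). Hist1h1c was at 106, 131, 233, 217 and 126 CPM (3.04 ± 0.31, adjusted p = 0.0001552). Hist1h1e was at 61.3, 190, 56.2, 112 and 1000 CPM (3.59 ± 0.94, adjusted p = 0.008641), which placed tumor 5 far above the others. Hist1h4d, an H4 gene, was also highest in tumor 5, at 276 CPM against 19.3 to 44.5 in the other tumors and 5.38 to 7.28 in controls (3.93 ± 0.89, adjusted p = 0.004185). The other leading genes rose in every tumor: Hist1h1d by 5.15 ± 0.67, Hist1h2ae by 4.90 ± 0.59, Hist1h4h by 3.45 ± 0.56, Hist1h4i by 3.35 ± 0.42 and Hist3h2a by 1.32 ± 0.27 on the log2 scale (adjusted p = 0.0003215, 0.0002456, 0.0008155, 0.0002795 and 0.00283). Hist3h2ba was the exception, at 37.9, 10.5, 75.5, 11.2 and 89.3 CPM in tumors, with the groups overlapping (log2 fold change -0.19 ± 0.56, adjusted p = 0.7804). The rise of Hist3h2a left tumor 2 at 20.1 CPM, close to control 4 at 20.0 CPM.

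Counted over the list, 44 of the 67 genes passed the filter on low counts and were tested, 43 were higher in tumors and 0 were lower. Of all 17594 genes tested, 32.2% were called higher and 29.4% lower. The median log2 fold change was 4.24 over the 44 genes and 0.04 over all genes. A gene high in tumors passes the filter more easily than one low in both groups, and such a gene could hardly be called lower. Hist1h3a, for example, had 2, 5, 1 and 0 UMIs in controls 1 to 4. The count and the median therefore do not speak for all 67, and the same limit holds for the later counts. All 5 tested H1 genes, 9 H2A, 9 H3 and 8 H4 genes and 12 of 13 H2B genes were called higher. Of lists fixed for this pathway, replacement and variant histones rose in 11 of 11 cases, from 1.16 to 4.34, histone chaperones in 11 of 15, and genes of histone pre-mRNA processing in 4 of 11, with 2 lower. In these sums over a whole sample, more cells of one type and more RNA a cell cannot be told apart. Cycling cells, as gated by 40 cell cycle genes that include no histone, were 0.0943% to 0.239% of kept cells in controls and 1.94%, 26.6%, 6.62%, 27.2% and 36.7% in tumors 1 to 5, and their part in the difference was not tested in this comparison. Cycling cells of controls could not be compared by class, since no control held as many as 20. Between the 2 gates lay a further 396 to 861 cells of each control and 197 to 1973 of each tumor, which were left out of both.

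Cycling and non-cycling cells were therefore set side by side within each tumor. In all 18 pairs of a tumor and a class with at least 20 cells on both sides, 14 of them in a marker gate and 4 of ungated cells, the summed level was higher in cycling cells, by 1.22 to 4.21 times. Progenitor-gated cells rose from 767 to 3230 CPM in tumor 2, from 1490 to 2600 in tumor 4 and from 1560 to 6310 in tumor 5. The highest level in any gate was that of cycling neuroblast-gated cells of tumor 5, at 7180 CPM against 1980 CPM in its non-cycling ones. Endothelial-gated cells differed least, from 1250 to 1580 CPM in tumor 4 and from 1340 to 1630 CPM in tumor 5. These are sums over cells of 1 tumor each and were given no test.

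**Figure D2:**
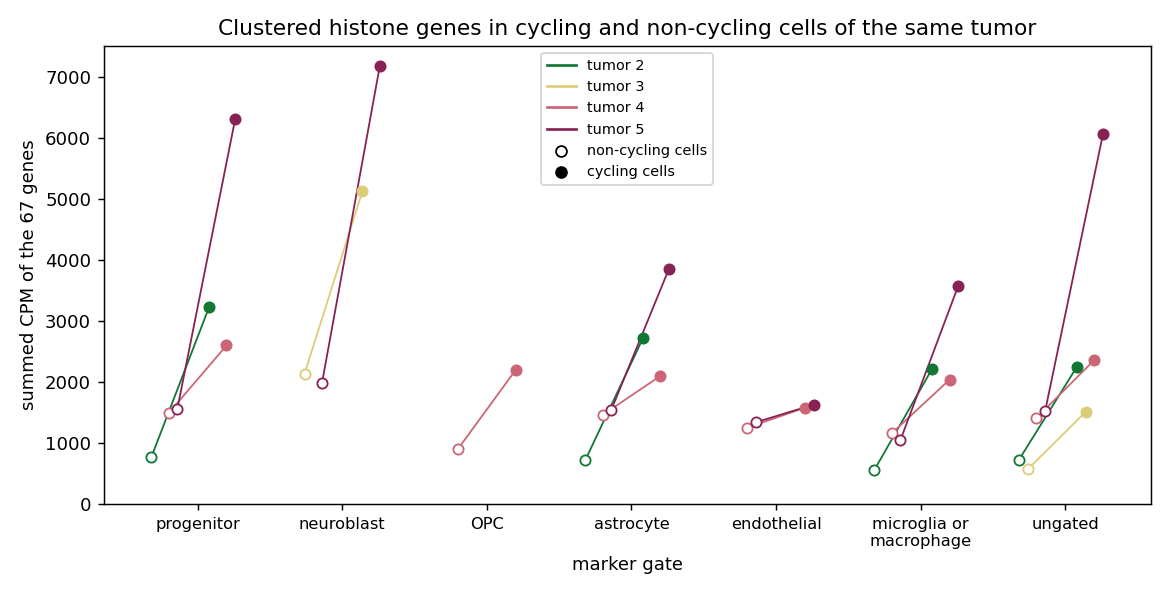
Summed CPM of the 67 genes in non-cycling (open) and cycling (filled) cells of each marker gate and of ungated cells, lines joining the cells of 1 tumor, for the 18 pairs with at least 20 cells on both sides. Every line rises, from 767 to 3230 CPM in progenitor-gated cells of tumor 2 and from 1250 to 1580 CPM in endothelial-gated cells of tumor 4.

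The share of cells with any histone UMI was high in both states. Thinned to 2000 UMIs a cell, 76.7%, 88.6% and 95.6% of cycling progenitor-gated cells of tumors 2, 4 and 5 held such a UMI, against 66.1%, 86.6% and 94.7% of the non-cycling ones. In tumor 2 the exact 95% binomial intervals, which cover counting error only, were 70.9% to 81.9% and 52.6% to 77.9%. Without thinning these shares were 91.5% to 99.6%, so that the measure was near its upper limit. Non-cycling neuron-gated cells, taken as a type that does not divide, were at 35.2% to 37.6% in controls at the same 2000 UMIs, with unthinned median depths of 2056 to 4108 UMIs against 3287 to 10155.5 in the progenitor-gated cells. Free RNA of the same control libraries held the histone genes at 320 to 374 CPM, above the 216.5 to 238 CPM of these neuron-gated cells. The part of free RNA in their share was not tested. The free RNA of tumors 2, 4 and 5 held them at 629, 1150 and 3530 CPM, against 767, 1490 and 1560 CPM in their non-cycling progenitor-gated cells, so no share there is read as the share of cells expressing a histone gene.

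Gene by gene, the comparison in progenitor-gated cells used tumors 2, 4 and 5, the only ones with at least 20 cells on both sides. Hist1h1b was at 15.7, 14.6 and 34.5 CPM in their non-cycling cells and at 776, 268 and 1340 CPM in their cycling cells (log2 fold change 4.76 ± 0.18, adjusted p = 3.998e-50). Hist1h2ap rose from 12.5, 19.5 and 13.8 CPM to 404, 563 and 277 CPM (4.87 ± 0.20, adjusted p = 9.044e-47). The H2A gene Hist1h2ae rose from 18.8, 12.8 and 34.5 CPM to 246, 197 and 229 CPM (3.75 ± 0.22, adjusted p = 1.6e-32). Cycling and non-cycling cells did not overlap for any of these genes. In free RNA Hist1h1b was at 76.9, 39.5 and 640 CPM in tumors 2, 4 and 5, and Hist1h2ap at 48.8, 77.4 and 95.7 CPM. Hist1h2ae was at 27.5, 30.2 and 86.9 CPM there. In each of these tumors the non-cycling levels of all 3 genes lay below free RNA and the cycling levels above it. The part of free RNA in these levels was not tested. Of 3 core histone genes that were nearly absent from non-cycling cells, the H3 gene Hist1h3c had 1 UMI there against 412 in cycling cells, a ratio of 99.7 per UMI counted with an exact 95% counting interval of 17.8 to 3950. Hist1h2bj had 1 against 164 (39.7, 7.03 to 1580) and Hist1h3f 1 against 102 (24.7, 4.33 to 985). Hist1h2ab had 0 UMIs there, where a count of 0 allows up to 3, against 187. These intervals cover counting error only.

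Other genes had more UMIs in non-cycling cells and rose over a lower range. Hist1h1e was at 97.1, 71.9 and 573 CPM in non-cycling and at 481, 231 and 1740 CPM in cycling cells (1.84 ± 0.13, adjusted p = 2.995e-26). The H4 gene Hist1h4d rose from 15.7, 14.6 and 124 CPM to 110, 32.8 and 494 CPM (1.84 ± 0.21, adjusted p = 8.117e-13), and the linker histone gene Hist1h1d from 0, 21.9 and 27.6 CPM to 80.8, 53.8 and 259 CPM (2.07 ± 0.24, adjusted p = 8.755e-13). In free RNA of the same tumors Hist1h1e was at 73.8, 69.8 and 903 CPM, Hist1h4d at 17.1, 8.72 and 333 CPM and Hist1h1d at 10.9, 20.9 and 142 CPM, so that in tumor 5 the non-cycling levels of all 3 lay below free RNA. Hist1h1a and Hist2h2ac, a linker and an H2A gene at 0 to 20.7 CPM in non-cycling cells, rose by 3.63 ± 0.39 and 3.40 ± 0.41 (adjusted p = 2.569e-14 and 6.534e-12). Hist1h4i rose least of the leading genes called, by 0.56 ± 0.19 (adjusted p = 0.02997). For Hist1h1e and Hist1h4d, tumor 5 stood above the other tumors in both states.

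A further group did not pass this test or ran the other way. Hist1h1c was at 132, 229 and 76.0 CPM in non-cycling and at 162, 223 and 179 CPM in cycling cells (0.26 ± 0.15, adjusted p = 0.274). Hist3h2a was at 31.3, 46.3 and 48.4 CPM against 23.0, 37.5 and 30.7 CPM (-0.34 ± 0.23, adjusted p = 0.3957), and Hist1h4h at 3.13, 47.6 and 34.5 CPM against 58.2, 34.9 and 121 CPM (0.45 ± 0.23, adjusted p = 0.2215). Hist1h2bc, the gene with most UMIs, was lower in cycling cells of all 3 tumors, at 286, 551 and 190 CPM against 360, 716 and 332 CPM (-0.42 ± 0.12, adjusted p = 0.00794). That call was lost with each of the 3 tumors left out and with DESeq2, while the rises of Hist1h1b, Hist1h2ap and Hist1h2ae held in those fits.

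**Figure D3:**
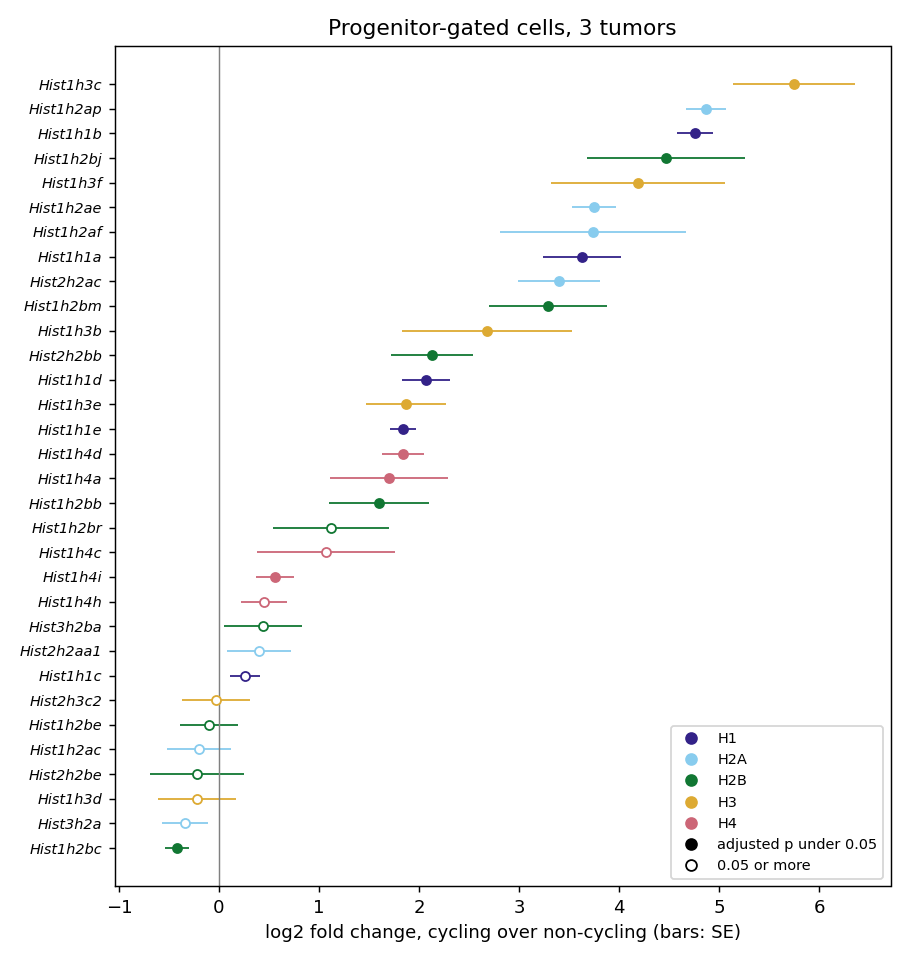
Log2 fold change with its SE, cycling over non-cycling progenitor-gated cells of tumors 2, 4 and 5, for the 32 clustered histone genes that passed the filter on low counts, coloured by histone, filled where the adjusted p was under 0.05. Values run from -0.42 for Hist1h2bc to 5.75 for Hist1h3c, which had 1 UMI in non-cycling cells, with 19 filled points above 0 and 1 below.

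In all, 19 of the 32 tested genes were higher in cycling cells and 1 was lower, where 8.93% of all 10529 genes tested were called higher and 5.09% lower. The median log2 fold change was 1.77 over the 32 genes and -0.04 over all genes. By kind, 4 of 5 H1 genes, 4 of 7 H2A, 4 of 9 H2B, 4 of 6 H3 and 3 of 5 H4 genes were called higher. A gene high in 1 state passes the filter on low counts more easily than one that is low in both, so these counts do not speak for all 67. The progenitor-gated cells of tumor 5 also carried neuroblast markers, at 1795 CPM in cycling and 1555 CPM in non-cycling cells, against 64.08 to 243.9 CPM in tumors 2 and 4. Markers of other classes moved with the cycle gate in all 3 tumors: astrocyte markers were at 1942, 1869 and 2204 CPM in non-cycling and 1373, 1288 and 1242 CPM in cycling cells, and ependymal markers at 905.1, 1035 and 697.8 CPM against 500, 527.6 and 396.3 CPM. Their part was not tested. Cycling cells were deeper, at medians of 8480, 10155.5 and 5761.5 UMIs against 5154, 6546 and 3287. When every cell was thinned to 2000 UMIs before gating, 7 genes were called higher and Hist1h2bc was again the 1 called lower.

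Set beside the annotated 3' ends, the genes with at most 100 annotated bases after the stem-loop had a median log2 fold change of 3.29 over 9 tested of 22, from 0.40 to 5.75. Those with more than 100 bases had a median of 0.56 over 15 tested of 22, from -0.34 to 4.19, and those with no stem-loop found a median of 1.92 over 8 tested of 23. These medians hold fitted values of genes with 1 non-cycling UMI. The ranges overlap widely, and Hist1h1e, Hist1h1d and Hist1h4d, with 1153, 4884 and 770 bases after the hairpin, were all called higher. The limit of 100 bases was set after the values were seen and the groups were not tested. The annotation behind the counts was not used here, and which end of the transcripts was read could not be settled.

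Microglia or macrophage-gated cells of tumors 2, 4 and 5 gave a second view of cycling. Hist1h2ap was at 7.62, 22.1 and 22.0 CPM in the non-cycling and at 253, 358 and 124 CPM in the cycling cells (3.96 ± 0.25, adjusted p = 2.544e-09). Hist1h1b rose from 16.6, 12.8 and 101 CPM to 559, 188 and 627 CPM (3.70 ± 0.27, adjusted p = 1.588e-08), and Hist1h2ae from 9.01, 13.5 and 22.0 CPM to 185, 208 and 88 CPM (3.63 ± 0.26, adjusted p = 9.38e-09). Hist2h2ac and the linker histone gene Hist1h1a, both low in non-cycling cells, rose by 2.99 ± 0.42 and 2.23 ± 0.43 on the log2 scale (adjusted p = 6.561e-05 and 0.001509). Hist1h1c and Hist1h2bc did not pass, at 0.17 ± 0.21 and -0.24 ± 0.14 (adjusted p = 0.6721 and 0.3354).

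Of 19 genes tested there, 10 were higher and 0 lower, where 6.93% of all 8243 genes tested were called higher and 5.57% lower, and the median log2 fold change was 1.16 over the 19 genes and -0.03 over all genes. The filter on low counts again favours genes high in cycling cells, so these values do not speak for all the clustered histone genes. Cycling cells were deeper, at medians of 6830, 6917.5 and 4764 UMIs against 3939.5, 5840.5 and 3713, and 6 genes were called higher when every cell was thinned to 2000 UMIs. Progenitor markers moved with the cycle gate in these cells: the 10 genes summed to 457, 1049 and 344 CPM in non-cycling and to 708, 1348 and 616 CPM in cycling cells, while microglia or macrophage markers fell from 41760, 34920 and 46310 to 30330, 22040 and 31460 CPM. The part of other cells' RNA in the rise was not tested. Whether the rise differs from that in progenitor-gated cells was not tested either.

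Taking all kept cells whatever their gate brought in all 5 tumors. The summed level was 586.2 CPM in non-cycling and 2611 CPM in cycling cells of tumor 1, 653 and 2552 in tumor 2, 967.6 and 2268 in tumor 3, 1335 and 2372 in tumor 4 and 1514 and 5830 in tumor 5. Of 44 genes tested, 30 were higher in cycling cells and 0 lower, where 15.7% of all 13685 genes were called higher and 17.1% lower. A gene high in cycling cells passes the filter on low counts more easily, so this count does not speak for all the clustered histone genes. Thinned to 2000 UMIs a cell, 18 were called higher. The cell types differ between the states here, and their part was not tested.

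Within the cycle, the question was whether S-gated cells held more histone UMIs than G2M-gated ones. How far messages without a poly(A) tail were captured was not tested, here or in the other comparisons. The values therefore describe captured messages only. In each of 11 pairs of a tumor and a class with at least 20 cells of both phases, 8 in a marker gate and 3 of ungated cells, the summed level was lower in S-gated cells, at 0.169 to 0.992 times the G2M level. In progenitor-gated cells it was 1900 against 3760 CPM in tumor 2, 2180 against 2420 in tumor 4 and 5960 against 6010 in tumor 5, so that tumor 2 differed most and tumor 5 hardly at all. In microglia or macrophage-gated cells it was 712 against 4210 CPM in tumor 2 and 1440 against 2670 in tumor 4.

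Called lower in S-gated progenitor-gated cells were 3 of 7 tested H2A, 1 of 6 H2B, 2 of 5 H3, 2 of 5 H4 and 2 of 5 H1 genes. Over all 8729 genes tested, 6.29% were called lower. With tumor 2 left out, no H1 or H2A gene was called lower. Hist1h4d was at 53.7, 19.5 and 396 CPM in S-gated and at 152, 33.9 and 553 CPM in G2M-gated cells of tumors 2, 4 and 5 (-0.85 ± 0.14, adjusted p = 8.009e-06). Hist1h3c was at 33.7, 5.38 and 78.2 CPM against 107, 15.0 and 127 CPM (-1.25 ± 0.21, adjusted p = 7.688e-06), and the H2A gene Hist1h2ab at 14.7, 2.69 and 33.2 CPM against 60.9, 7.27 and 44.4 CPM (-1.37 ± 0.31, adjusted p = 0.0008341). Hist2h2bb, an H2B gene, followed at -0.92 ± 0.24 (adjusted p = 0.00507). All of these were lower in S in each tumor, whereas Hist1h2ae, at 90.6, 121 and 204 against 302, 191 and 186 CPM (-0.81 ± 0.15, adjusted p = 4.983e-05), and Hist1h1b, at 363, 174 and 1290 against 941, 260 and 1170 CPM (-0.60 ± 0.12, adjusted p = 0.0002267), were lower in tumors 2 and 4 only. Hist1h2bc ran the other way in tumors 2 and 4 and was level in tumor 5, at 342, 566 and 166 CPM in S and 211, 498 and 167 CPM in G2M. It did not pass (0.31 ± 0.11, adjusted p = 0.05619).

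**Figure D4:**
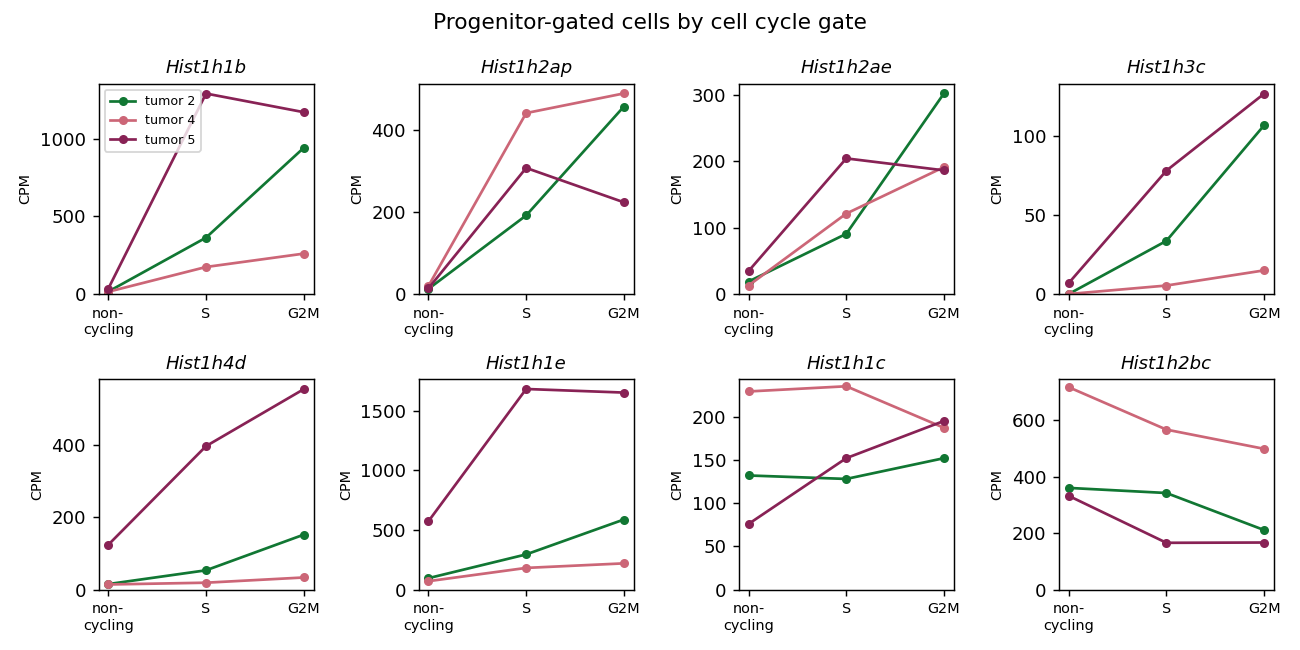
CPM of 8 clustered histone genes in non-cycling, S-gated and G2M-gated progenitor-gated cells, 1 line a tumor (2, 4 and 5). Hist1h1b, Hist1h2ap, Hist1h2ae and Hist1h3c are higher in both cycling gates than in non-cycling cells in each tumor, Hist1h3c only to 5.38 and 15.0 CPM in tumor 4, while Hist1h1c and Hist1h2bc are above 70 CPM in all 3.

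Of 28 genes tested, 0 were higher and 10 lower in S-gated cells, where 5.52% of all 8729 genes were called higher and 6.29% lower, and the median log2 fold change was -0.43 over the 28 genes and 0.03 over all genes. Without tumor 2, only 3 genes were called lower (Hist2h2bb, Hist1h4d and Hist1h3c), and DESeq2 called 2 (Hist1h4d and Hist1h3c). S-gated cells held medians of 7571, 10355 and 5665 UMIs and G2M-gated cells 9247, 10459 and 6276. Astrocyte markers were at 1610, 1633 and 1327 CPM in S-gated and 1070, 1027 and 1047 CPM in G2M-gated cells, and ependymal markers at 598.2, 725.2 and 440.7 CPM against 360, 382.3 and 323.2 CPM, and their part was not tested. The gates rest on messages of 20 S and 20 G2M genes and not on DNA content, and how well they mark replication was not tested.

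Genes that act beside the clustered histones were followed in 3 lists. Among replacement and variant histones, 7 of 11 were higher in cycling progenitor-gated cells and 0 lower. H2afz, which encodes H2A.Z, rose from 366, 701 and 719 CPM to 3180, 4640 and 3140 CPM (2.72 ± 0.11, adjusted p = 2.421e-48), and Cenpa, the centromeric H3, rose from 12.5, 7.32 and 6.91 to 273, 285 and 287 CPM (5.13 ± 0.24, adjusted p = 1.488e-41). H2afx and H2afv rose by 2.49 ± 0.15 and 1.75 ± 0.11 on the log2 scale. All 4 were lower in S-gated than in G2M-gated cells, and so were 7 of 11 in all, Cenpa by a log2 fold change of -5.47 ± 0.19 (adjusted p = 5.472e-31) and H2afz by -1.07 ± 0.07 (adjusted p = 8.411e-19).

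Of 11 tested genes of histone pre-mRNA processing and the histone locus body, 3 were higher in cycling cells and 0 lower. Slbp, the stem-loop binding protein, rose from 34.4, 23.2 and 41.5 CPM to 134, 85.2 and 138 CPM (1.91 ± 0.20, adjusted p = 2.092e-14), Eri1, a nuclease that acts on the stem-loop, by 1.89 ± 0.30 (adjusted p = 1.83e-07) and Casp8ap2, a histone locus body protein, by 1.04 ± 0.25 (adjusted p = 0.0009115). Slbp was higher in S-gated than in G2M-gated cells in each tumor, at 163, 113 and 204 against 86.1, 66.4 and 95.1 CPM (0.90 ± 0.13, adjusted p = 3.722e-07), as were 3 of 11 in all, Casp8ap2 among them (1.04 ± 0.18, adjusted p = 1.376e-05).

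Of 15 histone chaperones, 12 were higher in cycling cells and 0 lower. Chaf1b, a subunit of chromatin assembly factor 1, rose from 0, 2.44 and 0 CPM to 54.2, 44.3 and 38.0 CPM, the H3-H4 chaperone Asf1b by 3.99 ± 0.42 (adjusted p = 5.047e-15), Nasp, a carrier of H3-H4 and H1, by 2.10 ± 0.19 (adjusted p = 4.238e-18) and Hat1, which acetylates new H4, by 1.99 ± 0.22 (adjusted p = 8.012e-14). In S-gated against G2M-gated cells, Chaf1b, Hat1 and Nasp were higher by log2 fold changes of 1.95 ± 0.20, 1.21 ± 0.13 and 0.67 ± 0.12 (adjusted p = 7.786e-12, 4.088e-11 and 1.931e-05), and Asf1b was lower (-0.58 ± 0.19, adjusted p = 0.03614). Over the chaperone list 5 were higher in S and 2 lower.

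To set the cycle aside, tumors and controls were compared in non-cycling cells of 1 gate at a time. In microglia or macrophage-gated cells, Hist1h2bc was at 69.1, 65.2, 66.7 and 60.1 CPM in controls and at 180, 118, 422, 492 and 108 CPM in tumors 1 to 5, with no overlap (2.42 ± 0.48, adjusted p = 0.001889). In free RNA the same gene was also higher in tumors, at 126, 118, 115 and 97.3 CPM in controls and at 177, 175, 223, 475 and 245 CPM in tumors 1 to 5. The gated cells lay below their own free RNA in all 4 controls and in tumors 2 and 5, close to it in tumors 1 and 4, and above it in tumor 3. Hist1h1c was at 19.2, 50.1, 59.7 and 62.7 CPM in controls and at 205, 105, 458, 248 and 61.7 CPM in tumors (2.51 ± 0.53, adjusted p = 0.002734). Hist1h1d was at 11.5, 0, 35.1 and 44.4 CPM against 112, 41.6, 169, 43.5 and 39.7 CPM (2.17 ± 0.67, adjusted p = 0.02167). For Hist1h1c and Hist1h1d the lowest tumor lay below the highest control. The cycling-linked genes Hist1h1b and Hist1h2ap did not pass the filter on low counts here.

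Hist1h1e did not pass in these cells, at 84.4, 85.2, 172 and 115 CPM in controls and 144, 75.5, 58.9, 79.1 and 340 CPM in tumors (0.61 ± 0.47, adjusted p = 0.3384). Hist3h2ba was at 61.4, 42.6, 28.1 and 57.5 CPM in controls and at 12.4, 2.08, 31.2, 14.3 and 8.82 CPM in tumors (-1.38 ± 0.51, adjusted p = 0.05008), and was called lower in 4 alternative fits and with tumor 3 left out. Of 9 genes tested, 4 were higher, with Hist1h2ac beside the 3 above (1.63 ± 0.53, adjusted p = 0.0298), and 0 were lower, where 17.5% of all 7139 genes were called higher and 19.1% lower. The median log2 fold change was 1.23 over the 9 genes and 0 over all genes. Of the replacement and variant histones, 7 of 7 tested were higher, from 0.75 to 1.85, and 0 of 8 processing genes and 0 of 8 chaperones were called. Beside this, microglia or macrophage markers were at 14770 to 19870 CPM in the control and 34920 to 46310 CPM in the tumor cells, and neuron markers at 3672 to 4560 CPM and 149 to 1163 CPM. The part of free RNA in the difference was not tested.

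**Figure D5:**
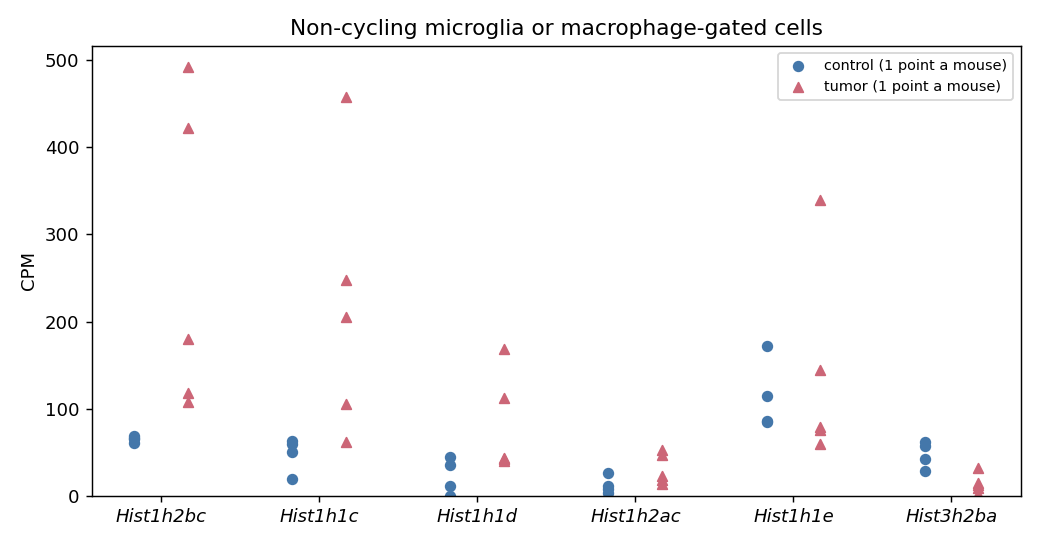
CPM of 6 clustered histone genes in non-cycling microglia or macrophage-gated cells, 1 point a mouse, 4 controls and 5 tumors. Hist1h2bc lay at 60.1 to 69.1 CPM in controls and 108 to 492 CPM in tumors, while Hist1h1e overlapped, at 84.4 to 172 and 58.9 to 340 CPM.

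Oligodendrocyte-gated cells were compared in 4 controls and in tumors 1 to 3, with at least 20 cells a mouse. Hist1h2bc was at 120, 149, 166 and 123 CPM in controls and at 472, 452 and 471 CPM in tumors (1.84 ± 0.23, adjusted p = 4.362e-06), and Hist1h1c at 24.0, 37.2, 43.7 and 30.8 CPM against 138, 151 and 108 CPM (2.07 ± 0.36, adjusted p = 0.0001197). The groups did not overlap for either gene. These were 2 of 4 genes tested, with 0 lower, where 20.7% of all 2637 genes were called higher and 22.1% lower. Oligodendrocyte markers were at 16990 to 26160 CPM in the control and 36310 to 59160 CPM in the tumor cells, and neuron markers at 2841 to 4084 and 154.5 to 751 CPM, and their part was not tested. Of the lists, 5 of 7 tested replacement and variant histones were higher, and 0 of 4 tested chaperones were higher and 1 lower.

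In neuron-gated cells of 4 controls and tumors 1 to 3, 1 of the 12 leading genes passed the test. The neuron-gated cells of these controls were not above free RNA in their own markers. How far their values are those of neurons was not tested, so genes that did not pass are not read as unchanged in neurons. Hist1h2bc was at 65.6, 65.2, 58.4 and 54.6 CPM in controls and at 68.3, 57.0 and 75.2 CPM in tumors (-0.02 ± 0.15, adjusted p = 0.9909), and Hist3h2ba at 65.1, 55.7, 59.0 and 58.1 CPM against 42.2, 36.0 and 84.2 CPM (-0.42 ± 0.19, adjusted p = 0.1539). Hist1h1e was at 22.1 to 26.9 CPM in controls and at 8.43, 36.0 and 0 CPM in tumors (-1.21 ± 0.44, adjusted p = 0.07957). Hist1h1b and Hist1h2ae had log2 fold changes of 1.98 ± 0.73 and 1.25 ± 0.51 and did not pass either (adjusted p = 0.08245 and 0.1097). Of 20 genes tested, 1 was higher and 0 lower, where 6.48% of all 16239 genes were called higher and 9.42% lower, and the median log2 fold change was 0.27 over the 20 genes and -0.06 over all genes. The 1 gene was Hist1h2ap, at 0.0977 to 0.563 CPM in controls and 3 to 5.06 CPM in tumors (3.10 ± 0.74, adjusted p = 0.01268), on 30 UMIs in all 7 mice. In the free RNA of these tumors it was at 7.41, 48.8 and 16.6 CPM, above the gated cells, and with the stricter marker gate 0 genes were called. Progenitor markers were at 203.5 to 216.3 CPM in the control and 262.3 to 447.1 CPM in the tumor cells, and oligodendrocyte markers at 1448 to 1907 and 294.1 to 719.1 CPM. Endothelial- and astrocyte-gated cells could not be compared with controls, because no 3 controls held 50 such non-cycling cells.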

How the data were processed

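Droplet single-cell RNA-seq of 5 tumors and 4 control brains was analysed from the deposited matrices of whole-number UMI counts, which the authors made with Cell Ranger (version 7 in the submitters' processing notes) on mm10. No columns of other series were present. The labels and the study's methods name a 5′ kit, but the deposited barcodes and values could not settle which transcript end was read. Cells were taken from the 10000 barcodes with most UMIs in each library, a limit chosen here. The range of 200 to 6000 genes and a 2-component mixture on mitochondrial percent, whose high mode was removed, follow the study's methods. Doublets were treated otherwise than in the study, by removing the cells with the highest Scrublet scores at 0.8% per 1000 barcodes. A cell was gated to a class when at least 3 of its 10 markers had a UMI, at least 2 more than for any other class. It was called cycling when at least 5 of 40 cycle genes had a UMI and non-cycling at 1 or fewer. Phase was called at a margin of 3 between 20 S and 20 G2M genes. Neither the cycle list nor any marker list holds a clustered histone gene.

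UMI counts were summed per mouse and class (at least 50 cells, or 20 in cycling states and in the oligodendrocyte and non-cycling progenitor comparisons, a limit lowered after cell numbers were seen) and tested with edgeR 4.0.16 (quasi-likelihood, TMM, filterByExpr, Benjamini-Hochberg over all genes tested, threshold 0.05), with the mouse as a block within tumors. The comparison over all cells of 5 tumors was also added then. The SE of a log2 fold change is its size divided by the square root of F. CPM is UMIs per 1000000 in the same sum. The fits were tested on simulated data, and no error rate from that test is given here. Alternatives were DESeq2 1.42.0, limma 3.58.1 (voom), RLE scaling, no filter, a mitochondrial limit of 10%, no gene maximum, no doublet removal, stricter gates, thinning to 2000 or 1000 UMIs, the replicate block and leaving out each mouse.

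Named are the 12 members with most UMIs, up to 5 per direction and comparison with the largest change among those called whose direction held with each mouse left out, and up to 4 genes a pathway list. Hist1h2ac, Hist1h2ba, Hist1h2be, Hist1h2bq, Hist1h3e, Hist1h4j, Hist2h2aa2 and Hist2h3c1 fall outside this rule and were named after their values were seen. Members and lists were chosen with earlier results of these data known. Stem-loops and overlaps come from GENCODE M21 transcripts, promoters from RefSeq.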

Additional observations from a re-analysis of the deposited data

Results flagged for a closer look

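In 5 of 34 groups of 4 or 5 mice examined, 1 mouse lay far from the others, where chance gives about 1 in 20 groups. All 5 concern leading genes over all kept cells. In tumors, Hist1h2bc stood out in tumor 4 at 630 CPM against 226 to 311 CPM in the other tumors. Hist1h1e stood out in tumor 5 at 1000 CPM against 56.2 to 190 CPM, and so did Hist1h4d in tumor 5 at 276 CPM against 19.3 to 44.5 CPM. The free RNA of tumor 5 held Hist1h1e at 903 CPM and that of tumor 4 held Hist1h2bc at 475 CPM. In controls the gaps were small in size: Hist3h2ba was at 62.3 CPM in control 1 against 55.7 to 56.6 CPM, and Hist1h1d at 1.3 CPM in control 2 against 1.96 to 2.08 CPM.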

How the results depend on the processing

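Among the recomputed counts of genes, levels and shares, 212 kept within their limit and 42 moved. Among recomputed values of single genes, 1380 kept direction and call, 48 gained and 62 lost the call, and 0 reversed. The counts that moved were as follows, the cause not being tested. In non-cycling microglia or macrophage-gated cells (4 higher, 0 lower), 1 gene was lower with DESeq2, voom, RLE scaling and no filter, and 2 were higher with voom and 10 with no filter. In neuron-gated cells (1 higher, 0 lower), 3 were higher with DESeq2, voom and the mitochondrial limit of 10%, 2 with no filter, where 1 was lower, and 0 with the stricter gate. In cycling progenitor-gated cells (19 higher, 1 lower), 12 were higher and 0 lower with DESeq2, 5 and 0 with no replicate block, 7 higher when thinned, and 0 lower with no filter. In cycling microglia or macrophage-gated cells (10 higher), 19 were higher with no filter, 2 with no replicate block, 16 with the mitochondrial limit and 6 when thinned. Over all cells of 5 tumors (30 higher), 13 were higher with no replicate block and 18 when thinned. In S against G2M (0 higher, 10 lower), 2 were lower with DESeq2 and 0 with no replicate block, and 1 (Hist1h2bc) was higher with voom, RLE scaling and the stricter gate.

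Leaving out each mouse gave 35 to 44 higher and 0 lower over all kept cells, 3 to 6 higher and 0 to 1 lower in microglia or macrophage-gated cells, 2 to 3 higher in oligodendrocyte-gated cells, 1 to 2 higher and 0 to 1 lower in neuron-gated cells, 16 to 20 higher and 0 lower in cycling progenitor-gated cells, 7 to 15 higher in cycling microglia or macrophage-gated cells, 24 to 32 higher over all cells of 5 tumors, and 0 to 1 higher and 3 to 12 lower in S. At 1000 UMIs the median share with a histone UMI was 76.0% in cycling progenitor-gated, 64.5% in cycling and 48.4% in non-cycling microglia or macrophage-gated cells, and the stricter cycle gate put the summed level of cycling microglia or macrophage-gated cells at 3240 CPM.

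Samples of the same number did not deviate together (correlations 0 to 0.05). The numbers were therefore not used to pair tumors with controls, although a weak pairing among such different tumors could be missed. With the replicate block, 40 genes were higher over all kept cells, 5 in microglia or macrophage-gated, 2 in oligodendrocyte-gated and 1 in neuron-gated cells. The stricter gates in progenitor-gated cycling cells and thinning of S against G2M left too few cells for a value. Comparisons of endothelial- and astrocyte-gated cells, of oligodendrocyte-gated cells at 50 cells and of cycling endothelial-gated cells were not run for the same reason. A further limit is that 16 members had 1 to 99 UMIs.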
